A study of Mus musculus with 12 samples.

Results

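The nuclear genes for the subunits of oxidative phosphorylation were examined in mouse brain after adolescent exposure to tetrahydrocannabinol (THC) and an adult challenge with bacterial lipopolysaccharide (LPS). The set held every protein-coding gene whose symbol starts with Ndufa, Ndufb, Ndufc, Ndufs or Ndufv and a digit, with Uqcr, with Cox and a digit from 4 to 8, or with Atp5, together with Sdha, Sdhb, Sdhc and Sdhd. This rule uses names and no measured value, and it took 84 of the 25556 genes in the joined count table. By textbook role, 35 of them belong to complex I, 4 to complex II, 8 to complex III, 20 to complex IV and 15 to complex V. The other two, Atp5s and Atp5sl, were matched by name but are not subunits of ATP synthase, and they are counted apart. Enough reads for testing were found for 82 of the 84 genes, and 81 averaged 1 CPM or more (counts per 1 M reads after TMM scaling, a correction for library composition). The 2 untested genes were the complex IV isoforms Cox7b2, with 57 reads over all libraries, and Cox8c, with 1 read.

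Male C57BL6 mice received 5 mg/kg THC or its vehicle, saline with 8% Tween-80, by daily intraperitoneal injection from postnatal day 30 to 44. On day 70 they were injected with 0.33 mg/kg LPS or with saline, and brain RNA was taken 24 h later. The groups, each with 3 libraries, were Veh_Ctrl (vehicle, then saline), THC_Ctrl (THC, then saline), Veh_LPS (vehicle, then LPS) and THC_LPS (THC, then LPS). All 4 groups share strain, sex and injection schedule. The labels do not say that each library came from its own mouse, so the p-values measure the spread between libraries, which may be technical.

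Oxidative phosphorylation takes place in the inner mitochondrial membrane. Complex I (NADH dehydrogenase) and complex II (succinate dehydrogenase) pass electrons to ubiquinone, complex III passes them to cytochrome c, and complex IV (cytochrome c oxidase) hands them to oxygen. Complexes I, III and IV pump protons while doing so, and complex V (ATP synthase) lets the protons return to make ATP. Most subunits are made from nuclear genes, while a small set of core subunits of complexes I, III, IV and V is encoded by mitochondrial DNA. Neurons draw most of their ATP from this system, and activated microglia are known to shift towards glycolysis.

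Each library held 16.7 to 44.7 M counted reads, of which the 84 genes together took 0.766 to 1.08%. The brain label was checked on marker genes. Summed markers of neurons (3767 to 5123 CPM), oligodendrocytes (3774 to 5769 CPM) and astrocytes (2166 to 2535 CPM) were high in every library, against 11.8 to 16.8 CPM for muscle markers. Veh_LPS replicate 2 stood apart by 4136 CPM of pituitary markers, which summed to at most 15.5 CPM elsewhere. THC_LPS replicate 3 stood apart by base composition. The Spearman correlation of gene level with GC content across its genes was -0.77, whereas the other libraries lay between -0.12 and 0.28, and mitochondrially encoded genes took 9.11% of its reads against 4.11 to 7.11%. Several results that rest on THC_LPS replicate 3 are therefore given with and without it. A value given only once includes that library, unless another fit is named, and may depend on it. In bulk tissue, fewer cells of a type and less RNA per cell cannot be told apart.

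Levels between genes were compared per kilobase of exon. Transcripts of complex V had the highest median, 115 CPM per kb over its 15 genes, and those of complex I the lowest, 54.8 CPM per kb over 35. These are medians over genes and do not give the amount of each complex. Atp5b, the catalytic beta subunit of ATP synthase, led the whole set at 631 CPM per kb, followed within its complex by Atp5a1 (alpha subunit) at 324 and Atp5h (peripheral stalk) at 210.0 CPM per kb. In complex IV the highest were Cox8a at 547, Cox6a1 at 472 and Cox4i1 at 421 CPM per kb. Complex III was led by Uqcrc1 (158 CPM per kb), Uqcrh (114) and Uqcr10 (113), and complex II by Sdha, the flavoprotein that oxidises succinate, at 138 CPM per kb, ahead of Sdhb at 78.0, Sdhd at 48.1 and Sdhc at 36.8. In complex I the accessory subunits Ndufb9 (183 CPM per kb) and Ndufb10 (113) were highest. The lowest were Ndufb2 in complex I (3.62 CPM per kb), Uqcrb in complex III (38.0), Cox8c in complex IV (0.0038) and Atp5g1 in complex V (21.8). The exon models of Ndufb2 and Atp5g1 span 4371 and 4715 bases, against a median of 957.5 for the tested set, so their levels per kilobase may be understated.

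The isoform pairs of complex IV were strongly uneven in brain. Cox4i1 stood at 421 CPM per kb against 2.41 for Cox4i2, the lung and hypoxia isoform. Cox6a1 stood at 472 against 5.44 for Cox6a2, and Cox7a2 at 93.2 against 3.33 for Cox7a1, both of the latter being heart and skeletal muscle isoforms. Cox6b1 stood at 189 against 3.47 for Cox6b2, a testis isoform, and Cox8a at 547 against 0.932 for the muscle isoform Cox8b. Cox7b stood at 64.2 against 0.377 CPM per kb for Cox7b2. Ndufa4, a complex IV subunit despite its name, stood at 276 CPM per kb against 3.43 for its homologue Ndufa4l2. The c ring of ATP synthase, whose genes encode the same mature protein, drew on Atp5g3 (202 CPM per kb), Atp5g2 (81.0) and Atp5g1 (21.8).

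Summed over the 84 genes, the level was 9604, 10867 and 9103 CPM in Veh_Ctrl, 9124, 11044 and 9809 CPM in THC_Ctrl, 10684, 8025 and 8418 CPM in Veh_LPS, and 8247, 7484 and 8351 CPM in THC_LPS. All 3 THC_LPS libraries lay below all 6 libraries without LPS, while Veh_LPS was split, with replicate 1 among the highest libraries and the other two among the lowest. The group means were 9858 ± 909 (Veh_Ctrl), 9992 ± 973 (THC_Ctrl), 9042 ± 1435 (Veh_LPS) and 8027 ± 474 CPM (THC_LPS; SD, n = 3 each). THC_LPS was thus 19.7% below THC_Ctrl, or 21.3% below it without THC_LPS replicate 3, and Veh_LPS was 8.28% below Veh_Ctrl. In all 5 complexes THC_LPS had the lowest group mean. Markers of other cell types moved beside the sum. The 5 erythrocyte markers, the haemoglobin genes and Alas2, summed to 191 to 344 CPM in Veh_Ctrl, 266 to 393 in THC_Ctrl, 72.4 to 356 in Veh_LPS and 111 to 187 in THC_LPS. As for the set, the THC_LPS libraries lay below all 6 without LPS and Veh_LPS replicate 1 lay far above the other Veh_LPS libraries. The 5 endothelial markers summed to 171 to 189, 156 to 164, 207 to 251 and 202 to 241 CPM in the same order, higher in all 6 LPS libraries than in the others. They did not move alike: Ly6c1 averaged 25.2, 27.8, 55.7 and 50.9 CPM, and Flt1 65.0, 58.6, 59.6 and 77.3 CPM. Flt1 was thus lower in Veh_LPS than in Veh_Ctrl, while the other endothelial markers were higher in each LPS group. The 5 neuronal markers summed to 4058 to 5123, 4170 to 4286, 3767 to 4049 and 3836 to 4674 CPM. Single neuronal markers went both ways between the means of THC_Ctrl and THC_LPS. Slc17a7 went from 1455 to 960 CPM and Rbfox3 from 229 to 213 CPM. Snap25 went from 1187 to 1554, Syt1 from 903 to 1061 and Gad1 from 451 to 454 CPM. The part of these cells in the result was not tested. Relative to THC_Ctrl, the sum in THC_LPS was 20.6% lower for complex I, 14.5% for complex II, 22.4% for complex III, 20.4% for complex IV and 19.3% for complex V.

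**Figure D1:**
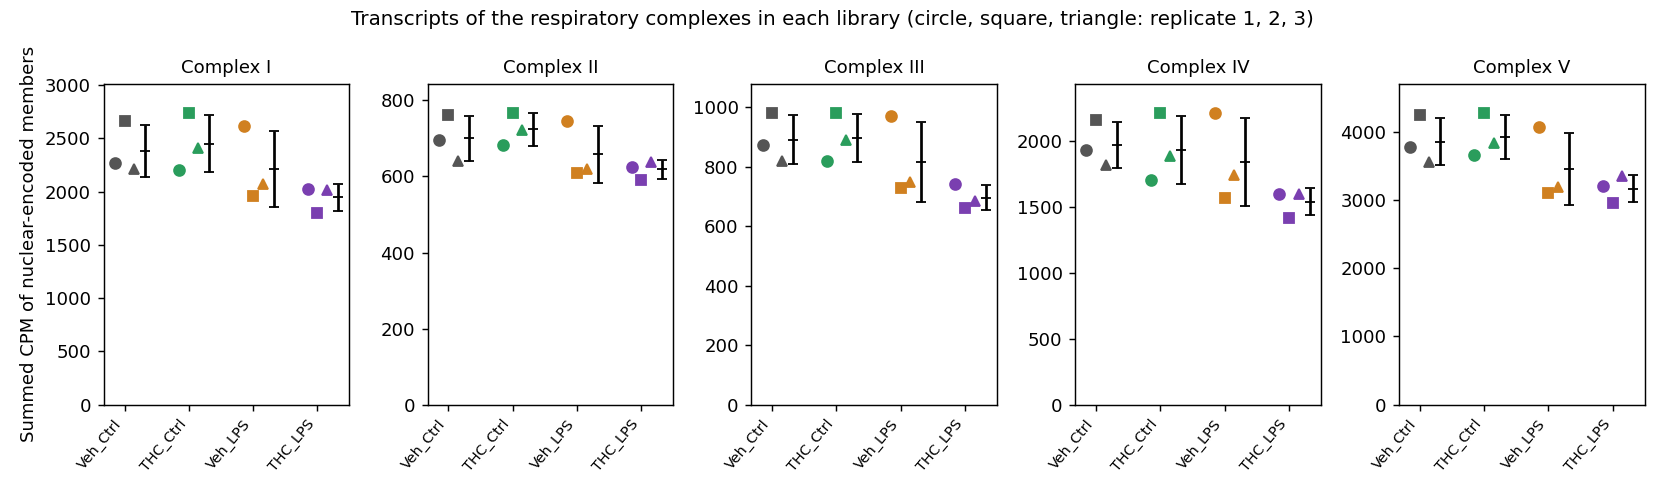
Summed level (CPM) of the nuclear genes of each respiratory complex in the 12 libraries; symbols are single libraries and the black mark is the group mean with 1 SD (n = 3). In every complex the 3 THC_LPS libraries lie below the 3 THC_Ctrl libraries, for example 1796 to 2024 against 2205 to 2741 CPM in complex I, while Veh_LPS replicate 1 lies with the controls.

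The first comparison asked how LPS acts after THC (THC_LPS against THC_Ctrl). No gene of the set passed edgeR's quasi-likelihood test at a Benjamini-Hochberg adjusted p under 0.05, in a comparison where 0.11% of the 17208 genes tested did (17 higher and 2 lower). At an unadjusted p under 0.05, 43 of the 82 genes were lower and 0 higher, against 9.61% of all genes lower. A negative log2 fold change was found for 72 of 82, against 50.8% of all genes, and the median was -0.35 against -0.01 over all genes. For 40 genes, all lower, the THC_LPS and THC_Ctrl libraries did not overlap, against 13.5% of all genes. Without THC_LPS replicate 3 the median was -0.33, 81 of 82 were negative against 49.8% of all genes, 49 had an unadjusted p under 0.05 and were lower against 6.74%, and 0 passed the adjusted test (0.00568% of all genes, lower). DESeq2 called 4 of the 82 genes lower (0.692% of all genes), namely Ndufv1, Ndufb8, Cox5b and Atp5k, and limma-voom with weights per library called 31 lower (2.54% of all genes). No test compared the set with other genes, and these shares are a description.

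In complex I, 31 of 35 genes had a negative fold change in LPS after THC, 15 of them at an unadjusted p under 0.05, with a median log2 fold change of -0.33. Of the 7 core subunits, which carry the flavin and the iron-sulphur clusters or help to bind ubiquinone, all were negative, with a median of -0.23. Ndufv1, the subunit that binds NADH and the flavin, had 154, 186 and 146 CPM in Veh_Ctrl, 160.0, 185 and 169.7 CPM in THC_Ctrl, 171, 135 and 130.5 CPM in Veh_LPS, and 127, 117 and 102 CPM in THC_LPS. All 3 THC_LPS libraries lay below the other 9. Its log2 fold change was -0.57 ± 0.14 (adjusted p = 0.107, edgeR) and -0.46 without THC_LPS replicate 3. The core subunit Ndufs8 was at -0.33 ± 0.16, and Ndufs1, the largest iron-sulphur subunit, at -0.09 ± 0.13, which was -0.23 without THC_LPS replicate 3.

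Among the 28 accessory subunits, which surround the core and are needed for assembly and stability, 24 were negative and 13 had an unadjusted p under 0.05, all lower. Ndufb8, in the membrane arm, had 47.3, 58.1 and 46.7 CPM in Veh_Ctrl, 51.6, 81.5 and 48.7 CPM in THC_Ctrl, 62.5, 42.6 and 45.3 CPM in Veh_LPS, and 40.4, 36.9 and 28.4 CPM in THC_LPS. THC_LPS was lowest, and THC_Ctrl replicate 2 was the highest of all libraries. Its log2 fold change of -0.78 ± 0.20 was the lowest of complex I (adjusted p = 0.124). The highest fold change of the complex was that of Ndufb2, with 14.4, 14.9 and 15.7 CPM in Veh_Ctrl, 14.5, 15.0 and 15.7 CPM in THC_Ctrl, 11.4, 14.6 and 16.8 CPM in Veh_LPS, and 13.2, 16.0 and 27.9 CPM in THC_LPS. Only THC_LPS replicate 3 stood out there, and the log2 fold change of 0.34 ± 0.22 became -0.01 without it. Ndufc1 behaved likewise, at 0.22 ± 0.29 with that library and -0.38 without it.

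All 4 genes of complex II were negative in LPS after THC, 3 of them at an unadjusted p under 0.05. Sdhc, a membrane anchor that holds haem, had 121, 132 and 112 CPM in Veh_Ctrl, 122, 145 and 143 CPM in THC_Ctrl, 141, 98.3 and 98.6 CPM in Veh_LPS, and 112, 96.9 and 78.3 CPM in THC_LPS. The THC_LPS libraries lay below those of THC_Ctrl but overlapped Veh_LPS. Its log2 fold change was -0.51 ± 0.16 (adjusted p = 0.149), and that of the iron-sulphur subunit Sdhb was -0.43 ± 0.15 (adjusted p = 0.168). Sdha, the most abundant gene of the complex, had 413, 434 and 382 CPM in Veh_Ctrl, 399, 428 and 404 CPM in THC_Ctrl, 419, 376 and 377 CPM in Veh_LPS, and 373, 365 and 436 CPM in THC_LPS. Only THC_LPS replicate 3 overlapped THC_Ctrl, and the log2 fold change was -0.07 ± 0.12 with it and -0.12 without it.

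In complex III, 7 of 8 genes were negative and 6 had an unadjusted p under 0.05, all lower. Uqcrfs1, the Rieske iron-sulphur protein, had 124, 139 and 114 CPM in Veh_Ctrl, 128, 123 and 132 CPM in THC_Ctrl, 128, 94.7 and 103 CPM in Veh_LPS, and 106, 81.7 and 101 CPM in THC_LPS. All THC_LPS libraries lay below all THC_Ctrl libraries, with a log2 fold change of -0.41 ± 0.14 (adjusted p = 0.165), and -0.41 without THC_LPS replicate 3. Uqcrc1, a core protein on the matrix side, gave -0.43 ± 0.14. The small subunit Uqcrq had 85.0, 104 and 81.8 CPM in Veh_Ctrl, 77.3, 101 and 87.7 CPM in THC_Ctrl, 108, 68.0 and 76.1 CPM in Veh_LPS, and 72.4, 59.8 and 39.1 CPM in THC_LPS. It had the lowest fold change of the complex, -0.64 ± 0.21, and it was less negative, -0.39, without THC_LPS replicate 3. Uqcrb, another small subunit, had 21.4, 24.8 and 17.2 CPM in Veh_Ctrl, 15.6, 24.5 and 18.3 CPM in THC_Ctrl, 22.6, 16.8 and 20.5 CPM in Veh_LPS, and 18.0, 18.5 and 39.3 CPM in THC_LPS, and its positive fold change of 0.38 ± 0.26 turned to -0.05 without that library.

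In complex IV, 16 of 18 tested genes were negative and 8 had an unadjusted p under 0.05, all lower. Cox4i1, the largest nuclear subunit, had 345, 374 and 305 CPM in Veh_Ctrl, 322, 443 and 345 CPM in THC_Ctrl, 427, 266 and 287 CPM in Veh_LPS, and 273, 245 and 232 CPM in THC_LPS. All THC_LPS libraries lay below all THC_Ctrl libraries, while Veh_LPS spread across most of the range. Its log2 fold change was -0.56 ± 0.17 (adjusted p = 0.149). Cox5b, a zinc-binding subunit on the matrix side, had 135, 156 and 127 CPM in Veh_Ctrl, 121, 178 and 129 CPM in THC_Ctrl, 152, 113 and 121 CPM in Veh_LPS, and 95.7, 90.5 and 98.9 CPM in THC_LPS. THC_LPS held the 3 lowest values, with a log2 fold change of -0.58 ± 0.16 that was -0.58 without THC_LPS replicate 3 (adjusted p = 0.127 and 0.134). Cox5a, its neighbour in the enzyme, had 59.6, 76.9 and 62.4 CPM in Veh_Ctrl, 62.3, 93.0 and 58.0 CPM in THC_Ctrl, 73.8, 49.7 and 55.6 CPM in Veh_LPS, and 53.7, 49.5 and 12.3 CPM in THC_LPS. A single library, THC_LPS replicate 3, was far below all others, so that the log2 fold change of -0.89 ± 0.38 was -0.43 without it. Cox6c, a small membrane subunit, had 119, 131 and 107 CPM in Veh_Ctrl, 101, 128 and 109 CPM in THC_Ctrl, 137, 96.6 and 125 CPM in Veh_LPS, and 103, 90.3 and 238 CPM in THC_LPS. Here the same library was far above all others, and the log2 fold change went from 0.35 ± 0.27 to -0.19.

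The low isoforms of complex IV had wide errors. Cox4i2 read 0.786 to 1.54 CPM in THC_LPS and 1.54 to 2.69 CPM in THC_Ctrl, with a log2 fold change of -0.83 ± 0.33, and Cox7a1 gave -0.79 ± 0.36. Cox6a2 and Cox6b2 both gave a log2 fold change near -0.38, within 2 SE of 0, and -0.11 and -0.19 without THC_LPS replicate 3. Cox7a2l, classed as a factor for supercomplexes, a function not examined here, was at -0.33 ± 0.16, and Ndufa4 at -0.12 ± 0.17. They were at -0.21 and -0.29 without THC_LPS replicate 3.

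In complex V, 13 of 15 genes were negative and 11 had an unadjusted p under 0.05, all lower. Atp5b had 1317, 1441 and 1218 CPM in Veh_Ctrl, 1257, 1438 and 1286 CPM in THC_Ctrl, 1338, 1038 and 1048 CPM in Veh_LPS, and 1057, 1024 and 1036 CPM in THC_LPS. All THC_LPS libraries lay below all THC_Ctrl libraries, and Veh_LPS replicates 2 and 3 were as low as THC_LPS. The log2 fold change was -0.35 ± 0.13 (adjusted p = 0.180). Its partner in the catalytic head, Atp5a1, gave -0.28 ± 0.13, and all 5 genes of the head were negative. All 3 genes of the c ring, the rotor through which protons pass, were lower without overlap, with Atp5g2 at -0.56 ± 0.17, Atp5g3 at -0.40 ± 0.16 and Atp5g1 at -0.31 ± 0.13. Atp5k, the small subunit e that helps ATP synthase form dimers, had 24.2, 24.6 and 19.3 CPM in Veh_Ctrl, 18.0, 34.2 and 20.0 CPM in THC_Ctrl, 28.2, 15.3 and 22.0 CPM in Veh_LPS, and 16.8, 10.1 and 13.0 CPM in THC_LPS. All THC_LPS libraries lay below all THC_Ctrl libraries. Its log2 fold change of -0.86 ± 0.26 was the lowest of the complex (adjusted p = 0.148), and that of Atp5j, coupling factor 6, the highest. Atp5j had 77.6, 89.2 and 74.8 CPM in Veh_Ctrl, 75.6, 81.4 and 84.3 CPM in THC_Ctrl, 88.1, 73.8 and 78.2 CPM in Veh_LPS, and 77.9, 68.6 and 142 CPM in THC_LPS, so that only THC_LPS replicate 3 was high, and its log2 fold change went from 0.26 ± 0.20 to -0.10 without that library. The 2 genes outside the enzyme were at 0.49 ± 0.24 (Atp5s, 0.09 without that library) and -0.21 ± 0.11 (Atp5sl).

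**Figure D2:**
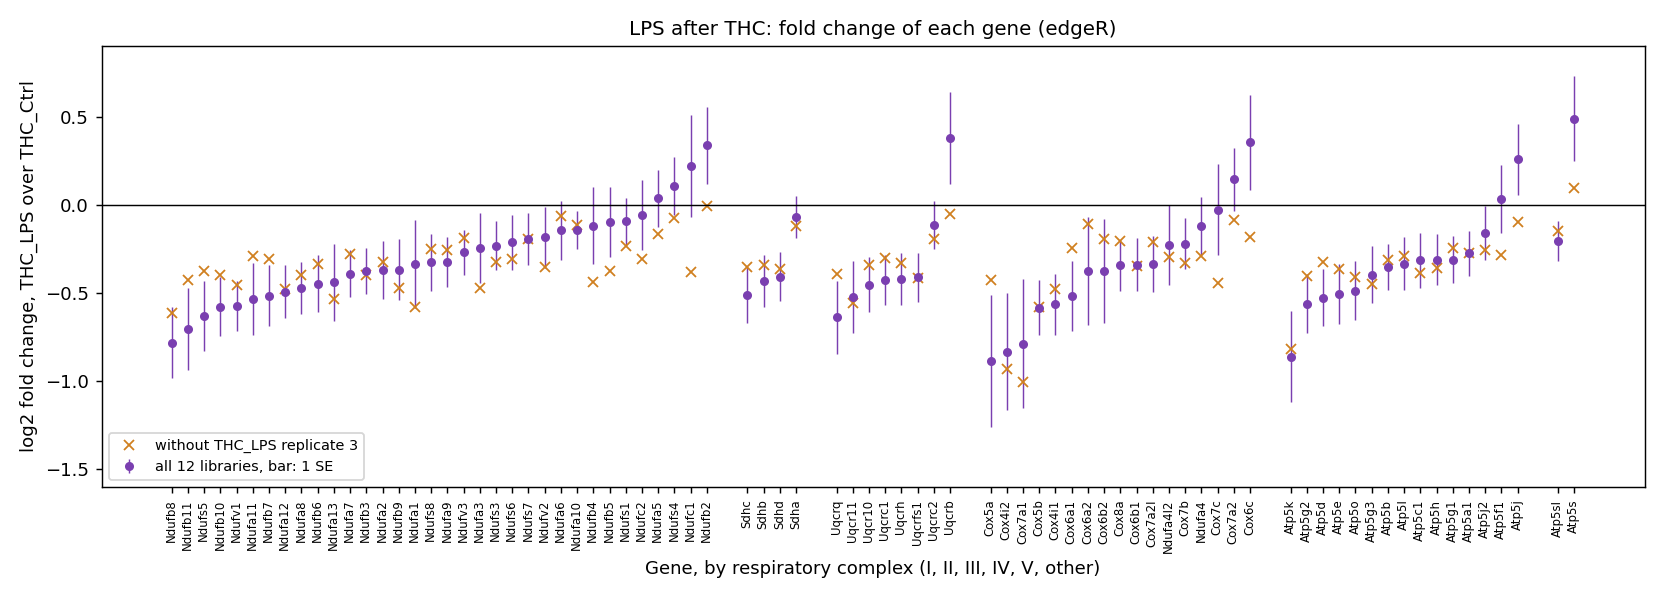
Log2 fold change of THC_LPS over THC_Ctrl for 80 of the 81 genes that average 1 CPM or more, ordered within each complex; circles with 1 SE are from all 12 libraries and crosses leave out THC_LPS replicate 3. Most circles lie below 0, and the positive ones, such as Cox6c at 0.35 and Uqcrb at 0.38, move below 0 as crosses, with Atp5s at 0.09 as the exception.

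The second comparison asked for the effect of LPS without THC (Veh_LPS against Veh_Ctrl). No gene of the set passed edgeR's test, in a comparison where 0.622% of all genes did, and 0 of the 82 had even an unadjusted p under 0.05, against 7.45% of all genes. DESeq2 called 0 of the set (1.26% of all genes), and limma-voom with weights per library called 2, Atp5b and Uqcrfs1, both lower (5.58% of all genes, lower). The median log2 fold change was -0.11 against -0.04 over all genes, and 66 of 82 were negative, against 56.2% of all genes. By complex the medians ran from -0.08 (complexes I and IV) to -0.12 (complexes II, III and V). Lowest and highest values are named among genes with a group mean of at least 1 CPM. With all tested genes, complex IV reached 0.79. The lowest in each complex were -0.29 ± 0.16 for Ndufb6, -0.13 ± 0.14 for Sdhd, -0.25 ± 0.20 for Uqcr11, -0.33 ± 0.36 for Cox7a1 and -0.22 ± 0.13 for Atp5b. The highest were 0.15 ± 0.17 for Ndufa6, -0.07 ± 0.12 for Sdha, 0.00 ± 0.15 for Uqcrh, 0.31 ± 0.32 for Cox4i2 and -0.01 ± 0.15 for Atp5j2. Ndufv1 was at -0.16 ± 0.14, Sdhb at -0.12 ± 0.15 and Uqcrc1 at -0.14 ± 0.14. Uqcrfs1 was at -0.21 ± 0.14, Cox4i1 at -0.06 ± 0.17, Cox5a at -0.15 ± 0.37 and Atp5a1 at -0.18 ± 0.13.

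Single Veh_LPS libraries moved this value. Relative to the Veh_Ctrl mean, the median of the 81 genes was 0.17 on the log2 scale in Veh_LPS replicate 1, -0.29 in replicate 2 and -0.19 in replicate 3. Without replicate 1 the median fold change of the set was -0.26, and without replicate 2, the library with pituitary markers, it was -0.01.

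The third comparison, THC without LPS (THC_Ctrl against Veh_Ctrl), gave 0 calls in the set and 0.0% over all genes by edgeR, and 0 of the 82 had an unadjusted p under 0.05, against 3.62% of all genes. DESeq2 (0.0814% of all genes) and limma-voom with weights (0.622%) also called 0 of the set. The median log2 fold change was 0.03, and 27 of 82 were negative, against 52.8% of all genes. The extremes were 0.49 ± 0.32 for Cox4i2 and -0.20 ± 0.14 for Cox8a in complex IV. In the other complexes they were 0.26 ± 0.22 for Ndufa13 and -0.13 ± 0.11 for Ndufa10, 0.16 ± 0.16 for Sdhc and 0.00 ± 0.12 for Sdha. They were 0.10 ± 0.15 for Uqcrh and -0.12 ± 0.26 for Uqcrb in complex III, and 0.19 ± 0.17 for Atp5o and -0.04 ± 0.13 for Atp5g1 in complex V.

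The fourth comparison set THC_LPS against Veh_LPS (THC with LPS). No gene of the set passed edgeR's test, nor did any other gene (0.0%), and DESeq2 and limma-voom with weights, which both called 0.0116% of all genes, called 0 of the set. At an unadjusted p under 0.05, 20 of the 82 were lower, against 4.59% of all genes, and 1, Atp5s, was higher, against 5.71%. The median was -0.22 against 0.00 over all genes, with medians by complex from -0.14 (complex V) to -0.32 (complex IV). The count of 20 became 11 without THC_LPS replicate 3 and 0 without Veh_LPS replicate 1. The 4.59% belongs to the fit with all libraries. Shares of all genes in these refits are not given, so 11 and 0 cannot be set against them. Among genes with a group mean of at least 1 CPM, the lowest were -0.54 ± 0.23 for Ndufb11, -0.25 ± 0.14 for Sdhd, -0.56 ± 0.21 for Uqcrq, -0.66 ± 0.33 for Cox4i2 and -0.72 ± 0.26 for Atp5k. With all tested genes, complex IV reached -1.71. With THC_LPS replicate 3 left out, Ndufb11 was at -0.28, Uqcrq at -0.33 and Atp5s at 0.22. Ndufv1 was at -0.34 ± 0.14, Cox4i1 at -0.39 ± 0.17 and Atp5b at -0.14 ± 0.13. The highest, Ndufb2, Sdha, Uqcrb, Cox6c and Atp5j, ran from 0.00 (Sdha) to 0.42 (Ndufb2), and without THC_LPS replicate 3 they ran from -0.29 (Cox6c) to 0.04 (Ndufb2). Without Veh_LPS replicate 1 the median of the set was -0.06.

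The interaction asks whether LPS acted differently after THC than after vehicle. No gene of the set passed edgeR's test (0.0% of all genes), and 0 of the set were called by DESeq2 (0.00581% of all genes) or limma-voom with weights (0.0349%). At an unadjusted p under 0.05, 5 were lower (Ndufb7, Ndufb8, Ndufb10, Cox4i2 and Atp5k), against 2.71% of all genes, and 1, Atp5s, was higher, against 4.07%. The median was -0.25 against 0.00 over all genes, and it was -0.12 without Veh_LPS replicate 1. Among genes with a group mean of at least 1 CPM, the lowest values by complex were -0.76 ± 0.28 for Ndufb8, -0.40 ± 0.23 for Sdhc, -0.53 ± 0.29 for Uqcrq, -1.15 ± 0.46 for Cox4i2 and -0.81 ± 0.36 for Atp5k. With all tested genes, complex IV reached -1.81. In the fit without THC_LPS replicate 3, Uqcrq was at -0.32, Ndufb7 at -0.36 and Atp5s at 0.33. A different response of these genes to LPS after THC than after vehicle was therefore not shown by this test, and an equal response was not shown either. All of these comparisons share libraries with one another.

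**Figure D3:**
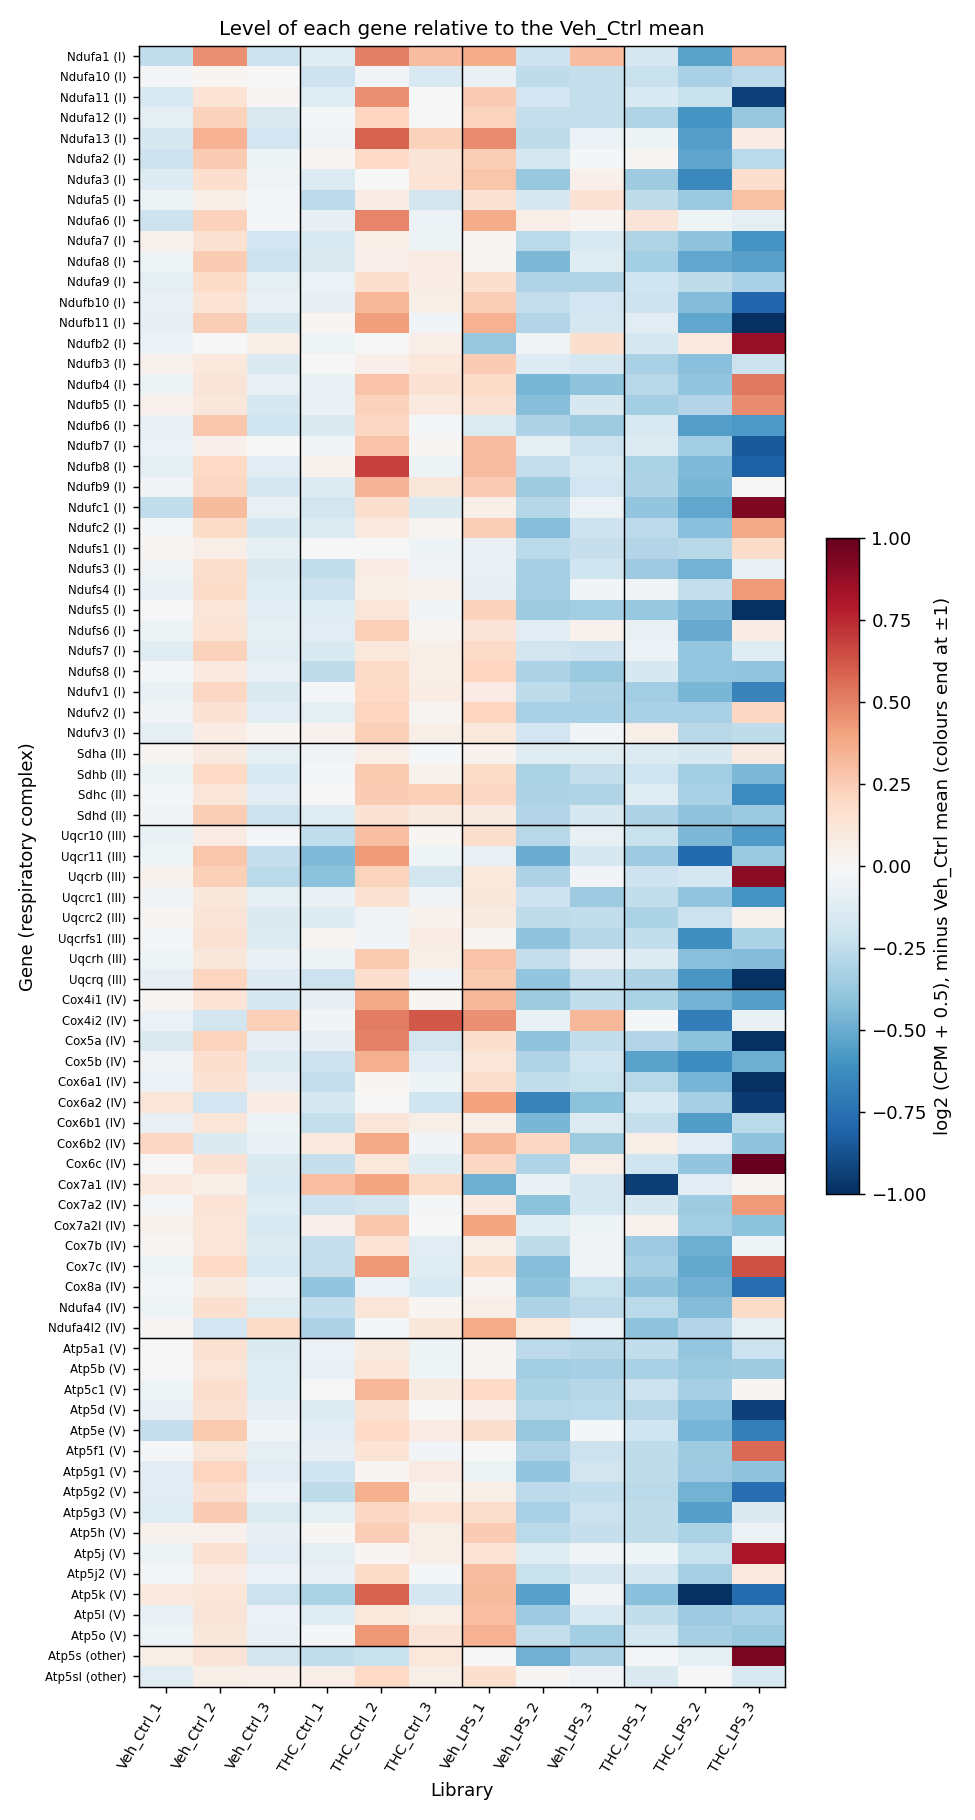
Level of the same 80 genes in the 12 libraries, as log2 (CPM + 0.5) minus the Veh_Ctrl mean, grouped by complex. Columns differ as wholes: Veh_Ctrl replicate 2, THC_Ctrl replicate 2 and Veh_LPS replicate 1 are mostly red (library medians over the 81 genes 0.14, 0.19 and 0.17), Veh_LPS replicates 2 and 3 (-0.29 and -0.19) and THC_LPS replicates 1 and 2 (-0.25 and -0.40) mostly blue, and THC_LPS replicate 3 is mixed around a median of -0.27.

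The genes moved together from library to library, and the movement ran beside a trend with gene length. The tested genes of the set are short, with a median of 957.5 bases against 2982 for all tested genes, and their median GC content was 50.3% against 49.8%. The Spearman correlation of gene level with length across all genes of a library was 0.03, -0.21 and 0.02 in Veh_Ctrl, 0.14, -0.25 and -0.21 in THC_Ctrl, -0.33, 0.13 and 0.11 in Veh_LPS, and 0.07, 0.29 and 0.17 in THC_LPS. The 3 libraries in which the 81 genes were highest (THC_Ctrl replicate 2, Veh_LPS replicate 1 and Veh_Ctrl replicate 2) also had the 3 most negative correlations, and the library in which they were lowest (THC_LPS replicate 2) had the most positive. With the length trend of each library removed, the median in LPS after THC was -0.25 against -0.03 over all genes, and with the trends of both length and GC removed it was -0.25 against -0.04. In that last fit 2 genes of the set, Cox5b and Ndufb3, passed the adjusted test as lower, against 0.564% of all genes. In THC with LPS these medians were -0.13 and -0.11. Within the set, the fold change in LPS after THC followed GC content with a Spearman correlation of -0.46 over 81 genes, and -0.16 without THC_LPS replicate 3. Over all tested genes with a known GC content (17088 in the fit with all libraries) the same correlation was -0.52, and -0.12 without that library. The genes of the set share the same libraries but differ in GC content, for example 37.0% for Atp5f1 and 63.3% for Atp5g2. The part of length and composition in the result beyond these refits was not tested.

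**Figure D4:**
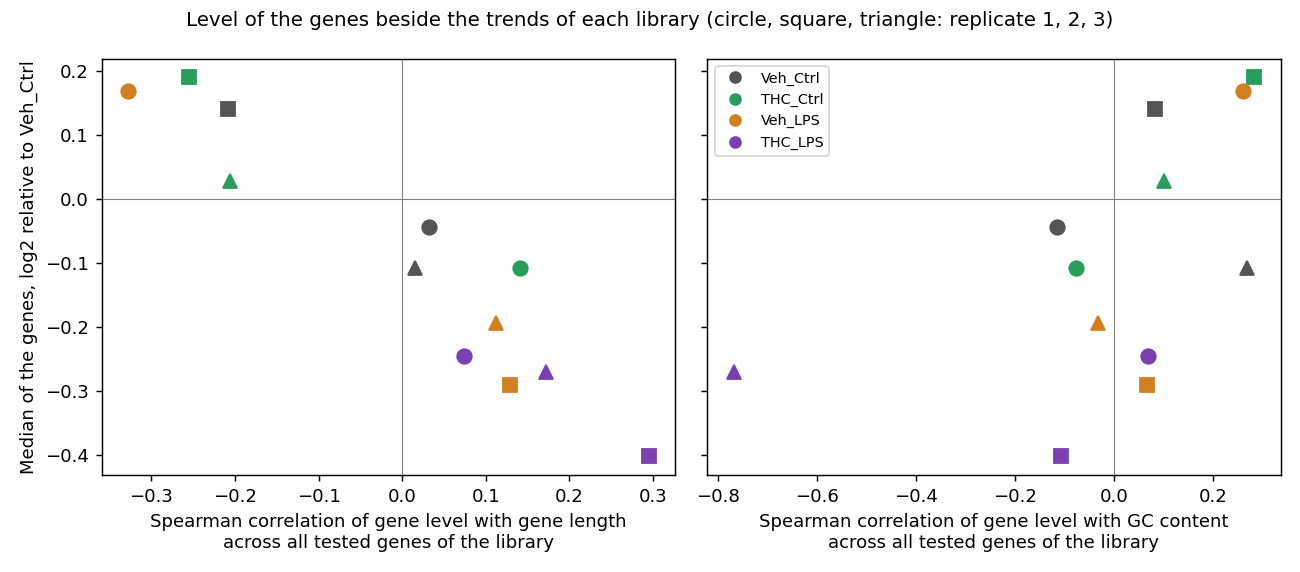
Median log2 level of the 81 genes relative to Veh_Ctrl in each library, against the Spearman correlation of gene level with gene length (left) and with GC content (right) across all tested genes of that library. Libraries on the right of the length panel tend to lie lower, with exceptions among neighbours: Veh_LPS replicate 1 is at 0.17 at the left end (-0.33) and THC_LPS replicate 2 at -0.40 at the right end (0.29), while THC_Ctrl replicate 1, further right than THC_LPS replicate 1, lies above it. In the GC panel THC_LPS replicate 3 lies alone at -0.77.

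The same medians are given for related lists, as values in LPS after THC beside the -0.35 of the set. The lists are chosen pathways and were not tested as sets. Their counts at an unadjusted p under 0.05 stand beside 9.61% of all genes lower and 9.78% higher. The mitochondrially encoded subunits had a median of 0.23 over 12 tested genes, with 0 lower and 2 higher, and mt-Nd6 had the smallest p (0.48 ± 0.20, and 0.27 without THC_LPS replicate 3). The sign of that median rested on a single library: without THC_LPS replicate 3 it was -0.11, with 9 of 12 negative, and with GC and length trends removed it was -0.11. In THC with LPS the median was likewise 0.23 with that library, -0.15 without it and -0.15 with the trends removed. In LPS after vehicle and THC without LPS it was 0.24 and 0.22. Nuclear subunits and carriers of electrons outside the name rule had a median of -0.20 over 5 genes, and Cyc1, the cytochrome c1 of complex III, was at -0.41 ± 0.16 (-0.26 without THC_LPS replicate 3). Assembly factors, which build the complexes but are not part of them, had a median of -0.08, with 6 lower and 1 higher of 49. Ndufaf3, a complex I assembly factor, had the smallest p of these at -0.56 ± 0.15. The cytosolic ribosomal proteins, whose genes are as short as those of the set (median 943 bases), had a median of -0.26 over 95 genes, with 30 lower and 2 higher, and mitochondrial ribosomal proteins had -0.22 over 76, with 22 lower and 1 higher.

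Of the metabolic lists, the glycolytic enzymes had a median of -0.32, and 11 of 17 were lower at an unadjusted p under 0.05. Without THC_LPS replicate 3 the median was -0.15 with 6 of 17 lower, against 6.74% of all genes lower in that fit. With GC and length trends removed the median was -0.19. Tpi1, triosephosphate isomerase, was at -0.47 ± 0.17, and at -0.25 without that library. The tricarboxylic acid cycle enzymes had a median of -0.14 with 3 of 19 lower, led by Mdh2 at -0.45 ± 0.15, and mitochondrial carriers and import proteins had -0.23 with 7 of 21 lower, led by the prohibitin Phb2 at -0.43 ± 0.15. Without THC_LPS replicate 3 these lists had 5 and 12 genes lower, again beside 6.74% of all genes, with Mdh2 at -0.26. Regulators of mitochondrial biogenesis had a median of -0.10 with 3 lower and 2 higher of 18, and a median of -0.03 without THC_LPS replicate 3. In that list the deacetylase Sirt3 had the smallest p at -0.50 ± 0.17, and Ppargc1a, the coactivator PGC-1alpha, was at 0.45 ± 0.17. Without that library they were at -0.30 and 0.23. Antioxidant and uncoupling genes had a median of -0.18 with 4 lower and 1 higher of 12, and Prdx5, a peroxiredoxin, was at -0.64 ± 0.20 (-0.38 without that library). The itaconate and immune metabolic list had a median of -0.01 over 7 tested genes and 0 past an unadjusted p of 0.05. Its smallest p was that of Sdhaf4, listed as 1110058L19Rik (-0.22 ± 0.23, and -0.46 without that library). By its name Sdhaf4 is an assembly factor of succinate dehydrogenase, so this list was not purely one of itaconate or immune genes. None of the genes in these lists passed edgeR's adjusted test in LPS after THC. In LPS after vehicle 1 did, Ucp2, an uncoupling protein of the inner membrane that microglia express, which stood at 67.1 ± 15.7 CPM in Veh_LPS against 34.5 ± 6.82 CPM in Veh_Ctrl (SD, n = 3; adjusted p = 0.0298, edgeR).

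The 5 genes outside the set whose level was most like its mean over the 12 libraries were Ip6k1 (Pearson r = 0.98), Bub3 (0.97), Pfdn1 (0.96), Slc25a5 (0.96) and Sod1 (0.96). Slc25a5 is an adenine nucleotide carrier of the inner mitochondrial membrane and Sod1 the cytosolic superoxide dismutase. These correlations describe 12 libraries that also share the length trend. In the order given, the 5 genes had 4557, 2055, 1077, 1240 and 646 bases, against a median of 957.5 for the set. The part of length in these correlations was not tested.

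Many of these genes are known to be controlled by NRF1, GABPA (NRF2), YY1 and ESRRA, so their promoters were searched for the letters these factors bind. RefSeq promoter windows (GRCm38.p6, 250 bases before to 50 after the start) were matched for 66 of the 84 genes, and both strands were searched. The NRF1 letters CGCATGCGC were in the windows of 8 genes, 12.1% of those matched against 3.56% of 12104 genes with a window. They were first searched with a G added in front, 10 letters in all, and shortened to 9 after that result had been seen; the longer form was in the windows of 5 genes (Atp5g2, Atp5k, Cox6a1, Ndufa11 and Uqcrc1), 7.58% of those matched against 2.02% of all genes, so the share depends on the form chosen. The GABPA letters CCGGAAGT were in 7.58% of both, the YY1 letters AAGATGGCG in 10.6% (7 genes) against 2.97%, and the ESRRA letters TCAAGGTCA in 3.03% (2 genes) against 0.347%. Overlaps between motifs were not excluded. The NRF1 letters nearly form a palindrome, so both strands can match at the same place. The genes with the NRF1 letters were Atp5k, Atp5g2, Ndufa11, Uqcr11, Cox6a1, Ndufa8, Uqcrc1 and Atp5l, whose log2 fold changes in LPS after THC were -0.86, -0.56, -0.53, -0.52, -0.52, -0.47, -0.43 and -0.33. The first 7 are below the median of the set, which is a description and no sign of binding. These 7 were also rich in GC, from 53.0% (Uqcrc1) to 63.3% (Atp5g2) against a median of 50.3% for the set. Atp5l had 39.8%. Within the set the fold change followed GC content (Spearman correlation -0.46), and the part of GC content in this order was not tested. In the fit without THC_LPS replicate 3, 4 of the 8 (Atp5k, Atp5g2, Uqcr11 and Ndufa8) were below the median of the set (-0.33), and Ndufa11 and Cox6a1 were at -0.29 and -0.25. In 6 of them the letters lie before the start, and these 250 bases are shown to let the site be seen in its surroundings, 5′ to 3′ on the strand of the gene, with the NRF1 letters in capitals. The windows lie at chr15:102671048-102671297 (minus strand, Atp5g2), chr5:108434400-108434649 (minus strand, Atp5k) and chr9:44920743-44920992 (minus strand, Atp5l). The others lie at chr5:115348959-115349208 (minus strand, Cox6a1), chr17:56717512-56717761 (plus strand, Ndufa11) and chr2:36049339-36049588 (minus strand, Ndufa8).
Atp5g2: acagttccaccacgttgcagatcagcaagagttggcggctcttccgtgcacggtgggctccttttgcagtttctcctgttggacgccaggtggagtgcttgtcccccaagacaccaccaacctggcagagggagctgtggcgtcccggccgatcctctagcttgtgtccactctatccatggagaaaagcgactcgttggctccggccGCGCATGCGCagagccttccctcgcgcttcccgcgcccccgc
Atp5k: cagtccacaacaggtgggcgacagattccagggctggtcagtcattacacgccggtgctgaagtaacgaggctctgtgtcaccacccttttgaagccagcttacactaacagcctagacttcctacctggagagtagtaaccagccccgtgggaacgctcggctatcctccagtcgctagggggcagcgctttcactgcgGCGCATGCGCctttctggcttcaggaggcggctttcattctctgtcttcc
Atp5l: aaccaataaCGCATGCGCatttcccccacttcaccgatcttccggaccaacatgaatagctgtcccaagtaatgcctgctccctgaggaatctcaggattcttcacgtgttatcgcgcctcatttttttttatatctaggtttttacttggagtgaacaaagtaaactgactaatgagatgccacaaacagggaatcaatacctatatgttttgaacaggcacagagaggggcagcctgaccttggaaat
Cox6a1: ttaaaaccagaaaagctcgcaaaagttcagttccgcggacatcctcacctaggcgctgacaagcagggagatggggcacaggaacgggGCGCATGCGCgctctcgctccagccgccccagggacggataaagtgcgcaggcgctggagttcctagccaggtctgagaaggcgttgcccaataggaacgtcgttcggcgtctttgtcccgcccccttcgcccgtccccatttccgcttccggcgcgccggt
Ndufa11: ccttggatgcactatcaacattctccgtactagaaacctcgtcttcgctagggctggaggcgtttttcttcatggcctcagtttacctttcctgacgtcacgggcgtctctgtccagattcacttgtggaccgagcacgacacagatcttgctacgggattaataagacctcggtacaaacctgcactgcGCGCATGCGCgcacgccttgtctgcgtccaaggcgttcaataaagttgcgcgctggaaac
Ndufa8: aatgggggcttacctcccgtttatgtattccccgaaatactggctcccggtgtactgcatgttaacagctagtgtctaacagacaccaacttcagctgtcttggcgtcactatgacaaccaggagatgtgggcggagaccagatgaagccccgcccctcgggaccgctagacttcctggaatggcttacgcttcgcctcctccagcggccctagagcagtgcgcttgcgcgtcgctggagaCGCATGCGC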

How the data were processed

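For each of the 12 libraries the authors deposited a table with raw counts of reads per gene, per its header. STAR 2.5, HTSeq, DESeq2 and the build mm10 are listed, without roles, in the submitters' processing notes. The sources used here do not give brain region, library kit or strandedness, so reads of overlapping or antisense genes could not be told apart. The tables were joined by gene identifier, with an absent gene taken as 0 reads (25556 genes). No pair of libraries agreed within sampling noise.

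All 12 libraries entered a single fit with edgeR 4.0.16 (R 4.3.3), with TMM scaling, the default expression filter (17208 genes), quasi-likelihood dispersions (robust) and p-values adjusted by Benjamini-Hochberg over all tested genes. The threshold was an adjusted p of 0.05. Each SE is approximate: the size of the log2 fold change over the square root of its F statistic. Levels are TMM-scaled CPM, divided by the exon length the files give for comparisons between genes. GC content came from the longest GENCODE transcript of each gene. Trends with length or GC were removed as smooth curves per library. Alternatives used DESeq2 1.42.0, limma 3.58.1, other filters and scaling, and fits without single libraries. The fit was tested on simulated data with known changes in LPS after THC, 50 genes for each size of change. It called 8% of the genes changed 1.25-fold, 34% of those changed 1.5-fold and 82% of those changed 2-fold. The simulated libraries held no trends with GC content or length. A count of 0 called genes therefore does not show that small changes are absent.

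Named genes were, per comparison and complex, the highest and lowest fold change among genes of at least 1 CPM, 10 fixed subunits (1 is not reported here), all isoform pairs, and the gene with the smallest p of each list. The genes, lists and tests were chosen with earlier results of these data known. Counting error is small at these depths, and 3 libraries per group set the precision. The 2 processed pseudogenes listed for the set, both of Atp5l, held 2 and 16 reads. Protein sequences were not used here.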

Additional observations from a re-analysis of the deposited data

How the results depend on the processing

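Of the 82 tested genes, 0 passed edgeR's adjusted test in the 5 comparisons with all libraries, and the number called was the result that changed. In LPS after THC it was 4 with DESeq2, 31 with limma-voom and weights per library, and 2 with GC and length trends removed, and in LPS after vehicle it was 2 with limma-voom. The other alternatives gave 0, and the cause was not tested. The median log2 fold change in LPS after THC stayed negative under all 23 alternatives (-0.41 to -0.25). Leaving out single libraries gave -0.41 to -0.27 in LPS after THC, -0.26 to -0.01 in LPS after vehicle, -0.04 to 0.12 in THC without LPS, -0.30 to -0.06 in THC with LPS and -0.34 to -0.12 for the interaction. Without both Veh_LPS replicate 2 and THC_LPS replicate 3 the median in LPS after vehicle was 0.02. Of the 82 genes, 10 had a positive value in LPS after THC and 9 of these were negative without THC_LPS replicate 3. Through all alternatives 20 genes named by the rule were carried, and 4 changed sign. Without THC_LPS replicate 3, the value was -0.10 for Atp5j, -0.19 for Cox6c, -0.0085 for Ndufb2 and -0.054 for Uqcrb, and without Veh_LPS replicate 2 as well it was -0.10, -0.19, -0.0084 and -0.054. Leaving out other single libraries gave up to 0.45, 0.60, 0.54 and 0.58. With limma-voom Atp5j was at -0.13, Cox6c at -0.18 and Uqcrb at -0.0011. With the length trend removed and without THC_LPS replicate 3, Cox6c was at -0.19 and Ndufb2 at -0.067. This refit and the one without GC and length trends were chosen after seeing the data. The labels do not say whether replicate numbers pair the libraries. Correlations of same-numbered libraries ran from -0.24 to 0.17, with 3 of 18 over 0.1, which does not settle it. With the number as a replicate block, 0 genes were called and the medians were -0.11, -0.35, 0.03, -0.22 and -0.26, for, in turn, LPS after vehicle, then LPS after THC, then THC without and with LPS, then the interaction. The depth, 16.7 to 44.7 M reads, limited most the isoforms near or under 1 CPM (Cox8b, Cox7b2 and Cox8c).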
